A study of Mus musculus with 6 samples.

Results

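The genes described here encode the nuclear-encoded subunits of the mitochondrial oxidative phosphorylation system. They were chosen by symbol, as the rows of the deposited count table whose name begins with Nduf followed by a, b, c, s or v and a number, is Sdha to Sdhd, or begins with Uqcr, Cox4 to Cox8 followed by a, b or c, or Atp5. The rule found 67 of the 11779 genes in the table: 31 of complex I, 3 of complex II, 8 of complex III, 10 of complex IV and 15 of complex V. The rule itself uses no measured value. Among the protein-coding genes of GENCODE M21, 82 symbols meet the rule and 66 of them were in the table. Of the other 16, Atp5mpl was in the table under its older name 2010107E04Rik and is described with the genes outside the rule. The rest, which include Sdhc, Atp5g1, Cox7c and Ndufa5, were not analysed here. After the filter on low counts 66 members were tested, Atp5g2 being the one left out.

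RNA-seq counts came from long-term hematopoietic stem cells, the rare marrow cells that maintain the blood system, sorted from the bone marrow of female mice aged 8 weeks as lineage-negative cells with Sca-1, c-Kit and CD150 but without CD48. The WT group (3 libraries) had the genotype c-Mycfl/+, that is 1 floxed and 1 intact allele of Myc and no Cre recombinase. The HET group (3 libraries) had the genotype c-Mycfl/+Mx1Cre, the same alleles with a Cre transgene under the interferon-responsive Mx1 promoter, which is not restricted to blood cells. Deletion was induced by poly(I:C), a double-stranded RNA mimic, given 3 times at 6 mg/kg, and whether the WT mice were injected as well is not stated separately. Libraries were numbered 1, 3 and 4 in each group, with KO rather than HET in the titles. The labels name neither the strain nor whether a library came from 1 mouse or several, so p-values measure only the spread between these libraries.

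Oxidative phosphorylation couples the passage of electrons along complexes I to IV of the inner mitochondrial membrane to the pumping of protons, and complex V, the ATP synthase, uses the resulting gradient to make ATP. Complexes I, III, IV and V contain a few subunits encoded by mitochondrial DNA and many encoded in the nucleus, whereas complex II is entirely nuclear-encoded. Long-term hematopoietic stem cells are known for a quiescent state that relies strongly on glycolysis, and MYC is known to activate many nuclear genes of mitochondrial function. The table held 0 genes encoded by mitochondrial DNA, so all values concern the nuclear side.

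Library totals ran from 4249490 to 9886223 counts, the highest in HET 1. Levels are CPM, counts relative to the library size after scaling by the TMM method. Myc itself measured 447.4, 427.4 and 541.8 CPM for WT 1, 3 and 4, against 293.8, 386.7 and 372.0 CPM for HET 1, 3 and 4. Its HET libraries all lay below the WT libraries, a difference of -0.43 in log2 units (SE 0.12, edgeR adjusted p = 0.312). All 12 stem cell markers of the list used were in the table, with a summed level between 3242.8 and 3775.7 CPM per library, and Kit, the receptor used in the sort, lay between 1091.3 and 1258.1 CPM. Cd48, a marker the sort excluded, averaged 2.55 ± 0.806 CPM over WT libraries, against 6.97 ± 2.88 CPM over HET libraries (SD, n = 3 per group). With 7 to 46 counts per library it did not pass (edgeR adjusted p = 0.849). The other progenitor markers of the list were nearly level, with Flt3 at 47.9 CPM in WT and 46.2 CPM in HET on average. Cd34 averaged 250.1 CPM over WT and 261.7 CPM over HET libraries. Granule and other neutrophil markers were present at low and uneven levels: 10 of 11 were in the table, and each of the 10 had counts in every library, with summed levels from 147.4 to 656.6 CPM in WT and from 210.2 to 478.7 CPM in HET. Of the defining markers of other lineages 2 of 6 were in the table for B cells, 2 of 6 for T and NK cells, 3 of 5 for monocytes and 4 of 8 for erythroid cells, with summed levels of at most 40.6 CPM in any library. Of the 3 monocyte markers 2 had negative fold changes and 1, Itgam, a positive one. Itgam averaged 9.63 CPM over WT and 19.6 CPM over HET libraries (edgeR adjusted p = 0.630). Of the 4 erythroid markers 2 were positive and 2 negative, with Car1 at 6.04 and 1.63 CPM (edgeR adjusted p = 0.788). All 6 megakaryocyte markers, some of which stem cells are also known to express, were in the table, with summed levels of 768.9, 753.6 and 764.8 CPM for WT 1, 3 and 4, against 1097.3, 899.6 and 927.6 CPM for HET 1, 3 and 4. The summed levels did not overlap between the groups, with Itga2b alone averaging 289.4 CPM over WT and 438.3 CPM over HET libraries. The 6 fold changes were positive with a median of 0.65 in log2 units, and HET 1 was the highest library for 5 of them. Only for Itga2b, 1 of the 6 (16.7%), did the HET libraries all lie above the WT libraries, against 4.69% of all genes. Of the 6 markers 0 passed, with Itga2b at 0.60 (SE 0.14, edgeR adjusted p = 0.132), and the part of these markers in the respiratory values was not tested.

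The first question was whether members differed between HET and WT. With edgeR's quasi-likelihood test adjusted over all 10869 genes tested, 0 of the 66 tested members were higher and 0 were lower in HET, where 0.258% of all genes were called (0.0368% higher and 0.221% lower). The smallest adjusted p of a member was 0.379, that of Uqcrh. An unadjusted p under 0.05 was reached by 3 members (4.55%), all with lower HET means, against 5.22% of all genes in either direction with 2.02% on the higher and 3.19% on the lower side. DESeq2, which gave no adjusted p for 1 member, and limma-voom also called 0 members. In 4 members (6.06%) the HET libraries all lay below the WT libraries and in 0 all above, against 5.64% and 4.69% of all genes. The share below was near that of the whole table, and the share above was lower than it.

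The fold changes of the members were small. Their median log2 fold change was -0.08, against 0.00 over all genes tested, and they ran from -0.42 for Ndufa9 to 0.45 for Ndufa12. Of the 66 values 43 were negative (65.2%), against 49.3% of all genes. The precision of a single member was a median standard error of 0.18 on the log2 scale, against 0.22 over all genes. For 61 members the 95% interval lay within a 2-fold change in either direction, and for 35 it lay within 1.5-fold. Over all 10869 genes tested these numbers were 8186 and 4895. For 28 of the 66 members the lower end of the interval was above the log2 fold change of Myc itself. The same held for 5282 of the 10869 genes tested, and Myc had an interval of its own, from -0.69 to -0.17. These intervals are for single genes and are not adjusted for their number. The 5 members whose interval reached beyond a 2-fold change were Ndufa12, Ndufs5, Uqcrb, Atp5l and Atp5s, which had between 3.24 and 18.6 CPM in either group on average. In bulk libraries fewer cells of a type and less RNA per cell cannot be told apart.

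**Figure D1:**
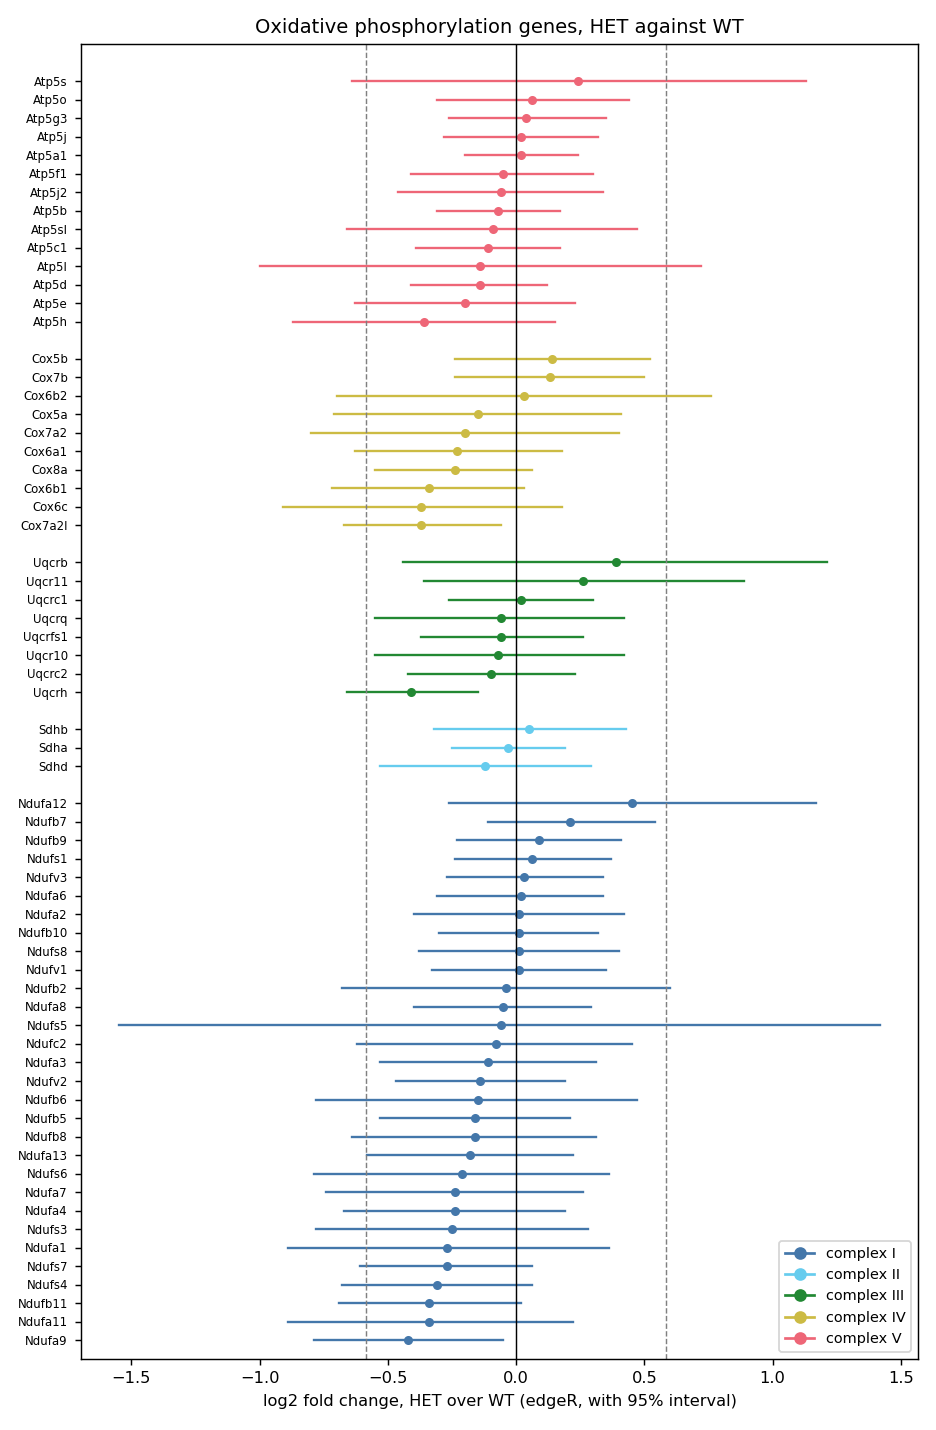
Log2 fold change of HET over WT (x axis, edgeR) for the tested members (y axis, grouped and coloured by complex, with 1 member of complex I not shown), with bars for the 95% interval and dashed lines at a 1.5-fold change in either direction. The intervals of Uqcrh, Cox7a2l and Ndufa9 exclude 0 before adjustment, and that of Ndufs5 is the widest.

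The upstream sequence of members is shown because the study lowered the dose of a factor that binds the E-box, CACGTG. RefSeq promoter windows (GRCm38.p6, 250 bases before to 50 after the gene start) were matched for 58 members. The E-box letters, which read the same on both strands, were found in 6 of the 58 (10.3%), against 12.2% of the 8769 tested genes with a window and 7.15% of all 32851 windows. Those 6 were Ndufa7, Ndufv1, Atp5f1, Atp5g3, Atp5l and Atp5sl. Their median log2 fold change was -0.07 (range -0.24 to 0.04), and that of the 51 tested members without the letters was -0.11. Letters associated with 3 regulators of respiratory genes were searched on both strands as well, and none of the 4 motifs contains another, although the ETS letters end in the 3 letters with which the YY1 letters begin, so these matches can share bases. The NRF1 letters GCGCA directly followed by TGCGC occurred in 6.9% of the members (2.41% of tested genes and 0.971% of all windows), the ETS letters CCGGAAG in 25.9% (21% and 8.86%) and the YY1 letters AAGATGGCG in 12.1% (3.74% and 1.4%). A match is a run of letters and not a measured binding site. The 250 bases before the start are given below for Ndufv1 and Atp5g3, which hold an E-box whose first base lies 169 and 238 bases before the start, and for Uqcrh, the member of smallest p, which holds none in this window but has the ETS letters with their first base 10 bases before the start. Sequences run 5′ to 3′ on the gene's strand, and capitals mark the motif letters.
Ndufv1, chr19:4012756-4013005, minus strand: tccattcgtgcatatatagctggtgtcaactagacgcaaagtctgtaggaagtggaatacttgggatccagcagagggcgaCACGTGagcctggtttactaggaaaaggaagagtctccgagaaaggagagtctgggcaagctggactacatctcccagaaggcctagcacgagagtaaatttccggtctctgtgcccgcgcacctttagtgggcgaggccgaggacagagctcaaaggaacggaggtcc
Atp5g3, chr2:73911327-73911576, minus strand: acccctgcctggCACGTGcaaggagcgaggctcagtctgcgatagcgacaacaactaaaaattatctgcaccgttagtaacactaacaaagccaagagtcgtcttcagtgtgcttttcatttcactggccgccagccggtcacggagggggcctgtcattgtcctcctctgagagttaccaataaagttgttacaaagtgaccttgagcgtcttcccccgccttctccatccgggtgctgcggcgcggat
Uqcrh, chr4:116075071-116075320, minus strand: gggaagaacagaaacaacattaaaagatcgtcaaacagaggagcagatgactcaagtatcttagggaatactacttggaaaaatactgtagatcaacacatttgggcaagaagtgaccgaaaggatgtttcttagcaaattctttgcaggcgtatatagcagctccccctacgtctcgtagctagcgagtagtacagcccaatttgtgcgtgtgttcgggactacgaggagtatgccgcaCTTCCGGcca

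Complex I passes electrons from NADH to coenzyme Q. Its 31 tested members had a median log2 fold change of -0.11, with 20 negative and 11 positive values, and 0 passed. The 7 nuclear-encoded core subunits, which carry the flavin and the iron-sulfur clusters or bind the quinone, had a median of 0.01. Ndufv1, the flavin-binding subunit, measured 81.2, 111.8 and 98.0 CPM for WT 1, 3 and 4, against 116.9, 82.7 and 91.8 CPM for HET 1, 3 and 4. Its group means were almost equal, at 97.0 ± 15.3 and 97.1 ± 17.8 CPM (SD, n = 3 per group). The groups overlapped. Among other core genes the log2 fold changes were 0.06 for Ndufs1, 0.01 for Ndufs8, -0.14 for Ndufv2, -0.25 for Ndufs3 and -0.27 for Ndufs7, with standard errors between 0.15 and 0.25.

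Accessory subunits surround the core and support its assembly and stability. The 23 tested accessory subunits, with Ndufa4 set aside, had a median log2 fold change of -0.11, with 16 negative and 7 positive values. Ndufa9 (ENSMUSG00000000399, GRCm38 chromosome 6, 126821721 to 126849136, minus strand), which sits where the matrix arm meets the membrane arm, came to 71.3, 96.2 and 78.2 CPM across the WT libraries, against 70.7, 49.7 and 62.6 CPM across the HET libraries. All HET libraries were below all WT libraries, but HET 1 missed WT 1 by less than 1 CPM. HET stood at 74.8% of WT (95% interval 57.9% to 96.5%, edgeR adjusted p = 0.844). Ndufb11 (ENSMUSG00000031059, GRCm38 chromosome X, 20615326 to 20617619, minus strand), a membrane arm subunit, gave 68.4, 94.8 and 70.4 CPM in the WT samples, and the HET samples gave 63.6, 58.9 and 62.2 CPM. Its HET libraries were close together and below the WT libraries, among which WT 3 stood highest, and its adjusted p was 0.952. Ndufs4, an accessory subunit of the NADH-oxidising module, came to 74.7, 78.5 and 69.9 CPM across the WT libraries, against 74.1, 48.6 and 56.5 CPM across the HET libraries. HET 1 lay among the WT libraries while HET 3 and HET 4 lay below them. Ndufs7 gave 70.5, 87.3 and 87.5 CPM in the WT samples, and the HET samples gave 66.7, 74.4 and 61.8 CPM, with overlap between WT 1 and HET 3.

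On the positive side of complex I, Ndufb7 had a log2 fold change of 0.21 ± 0.16 and Ndufa12 of 0.45 ± 0.34 (SE). Ndufa6 was nearly constant, at 69.3, 70.3 and 71.8 CPM for WT against 71.2, 71.1 and 71.3 CPM for HET. It also had the highest level per length among the Nduf genes, 185.4 CPM per kilobase of transcript. Ndufs5 had the fewest reads of this complex, between 4 and 40 counts per library, and its pooled HET to WT ratio was 1.02 (exact 95% interval for counting error 0.701 to 1.49). The edgeR 95% interval, which includes the spread between libraries, ran from 34.2% to 267% of WT. Ndufa4 is placed here by its symbol but its protein is now regarded as a subunit of complex IV. It averaged 43.7 ± 7.85 CPM over WT libraries, against 37.0 ± 2.76 CPM over HET libraries (SD, n = 3 per group), with overlapping libraries.

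Complex II, succinate dehydrogenase, links the citrate cycle to the electron chain. Its 3 members had a median log2 fold change of -0.03. Sdha, the flavoprotein with the catalytic site, came to 346.8, 351.3 and 388.5 CPM across the WT libraries, against 377.3, 342.2 and 343.4 CPM across the HET libraries. The groups overlapped, and HET stood at 97.9% of WT (95% interval 83.8% to 114%). Sdhb, the iron-sulfur subunit, gave 57.9, 68.4 and 68.7 CPM in the WT samples, and the HET samples gave 82.8, 54.5 and 64.1 CPM. Sdhd, a membrane anchor, came to 58.1, 66.8 and 63.9 CPM across the WT libraries, against 76.1, 45.6 and 50.7 CPM across the HET libraries. In both, HET 1 was the highest library of the 6 and HET 3 the lowest.

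Complex III moves electrons from reduced coenzyme Q to cytochrome c. Of 8 members 5 had negative and 3 positive fold changes, with a median of -0.06. Uqcrh (ENSMUSG00000063882, GRCm38 chromosome 4, 116066965 to 116075071, minus strand) encodes the hinge protein, an acidic subunit near the docking site of cytochrome c. It gave 256.7, 283.0 and 281.9 CPM in the WT samples, and the HET samples gave 190.6, 239.5 and 190.2 CPM. The groups did not overlap, and HET 3 was the HET library nearest to WT. HET stood at 75.4% of WT (95% interval 63.3% to 89.9%), which is -0.41 in log2 units (SE 0.12, edgeR adjusted p = 0.379). In the fits that left out 1 library the log2 fold change lay between -0.52 and -0.35. Uqcrh also had the highest level per length of all 67 members, 506.5 CPM per kilobase.

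The remaining complex III genes gave overlapping groups. The core proteins Uqcrc1 and Uqcrc2 had log2 fold changes of 0.02 ± 0.14 and -0.10 ± 0.16, and Uqcrfs1, the Rieske iron-sulfur protein, -0.06 ± 0.15 (SE). The small subunits Uqcrb and Uqcr11 had 0.39 ± 0.40 and 0.26 ± 0.30. Uqcr11 came to 30.3, 30.6 and 12.4 CPM across the WT libraries, against 34.4, 22.9 and 30.8 CPM across the HET libraries, so that WT 4 alone stood apart. Cyc1, which encodes cytochrome c1 but lies outside the symbol rule, averaged 57.8 ± 5.52 CPM over WT libraries, against 52.9 ± 13.1 CPM over HET libraries (SD, n = 3 per group).

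Complex IV, cytochrome c oxidase, hands electrons to oxygen, and its nuclear-encoded subunits surround a core encoded by mitochondrial DNA. Its 10 members had the lowest median of the 5 complexes, -0.21, with 7 negative and 3 positive values and 0 passing. Without HET 3 the median was -0.03, equal to that of complex I, and with the length and GC trends removed it was -0.07, equal to that of complex V. The difference between complexes was not tested. Cox7a2l (ENSMUSG00000024248, GRCm38 chromosome 17, 83501918 to 83517330, minus strand), which encodes SCAF1, a factor that joins complexes III and IV in supercomplexes, gave 114.4, 123.5 and 103.5 CPM in the WT samples, and the HET samples gave 79.2, 84.6 and 101.7 CPM. The groups did not overlap, by the small distance between WT 4 and HET 4. HET stood at 77.6% of WT (95% interval 62.7% to 96.0%, edgeR adjusted p = 0.806). Cox6b1 came to 69.5, 80.7 and 73.0 CPM across the WT libraries, against 73.3, 48.4 and 53.0 CPM across the HET libraries, and Cox6c 46.5, 34.4 and 37.0 CPM for WT against 38.1, 17.2 and 35.5 CPM for HET. In both, HET 1 lay within the WT range. Cox8a, with the highest level per length of this complex (186.2 CPM per kilobase), gave 93.3, 127.1 and 112.8 CPM in the WT samples, and the HET samples gave 99.4, 91.8 and 90 CPM.

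Several subunits of complex IV have tissue-specific isoforms. Cox4i1, the ubiquitous isoform of subunit 4 and outside the symbol rule, averaged 179.5 ± 14.8 CPM over WT libraries, against 176.8 ± 13.3 CPM over HET libraries (SD, n = 3 per group), a log2 fold change of -0.02 ± 0.12 (SE). Cox4i2, the lung and hypoxia isoform, had too few reads to be tested: 1.62, 0.183 and 0.715 CPM for WT against 2.18, 1.31 and 7.60 CPM for HET. HET 4 held 39 of its 67 HET counts. Cox6b2, known from testis, made up 15.2%, 12.8% and 20.4% of the Cox6b1 and Cox6b2 reads per length for WT 1, 3 and 4, against 17.9%, 16.8% and 25.2% in HET. The ubiquitous Cox6b1 was thus the more abundant in every library. Cox7a2 averaged 27.5 ± 7.79 CPM over WT libraries, against 23.9 ± 7.96 CPM over HET libraries, and Cox6a1 51.1 ± 4.35 and 43.6 ± 7.90 CPM (SD, n = 3 per group), both with overlap.

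Complex V uses the proton gradient to turn a rotor inside the catalytic head. Of its 14 tested members 9 had negative and 5 positive fold changes, with a median of -0.06. The head genes were the most abundant members by CPM. Atp5a1 (subunit alpha) came to 883.5, 880.2 and 827.5 CPM across the WT libraries, against 987.2, 748.2 and 887.8 CPM across the HET libraries. Atp5b (subunit beta) gave 618.3, 614.3 and 586.7 CPM in the WT samples, and the HET samples gave 679.6, 492.0 and 561.6 CPM. In both genes HET 1 was the highest library and HET 3 the lowest, with the WT libraries in between. HET stood at 101% of WT for Atp5a1 (95% interval 87.1% to 118%) and at 95.3% for Atp5b (80.9% to 112%). Among the rotor stalk genes Atp5c1 (gamma), Atp5d (delta) and Atp5e (epsilon) the log2 fold changes were -0.11 ± 0.13, -0.14 ± 0.13 and -0.20 ± 0.21 (SE).

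The peripheral stalk, which holds the head still, gave -0.36 ± 0.24 for Atp5h, -0.05 ± 0.17 for Atp5f1, 0.02 ± 0.14 for Atp5j and 0.06 ± 0.18 for Atp5o (SE). Atp5h came to 33.6, 38.4 and 44.6 CPM across the WT libraries, against 37.5, 19.4 and 32.9 CPM across the HET libraries, with HET 3 the lowest. The membrane ring protein c is made from several genes that encode the same mature protein. Of these Atp5g3 averaged 108.6 ± 11.5 CPM over WT libraries, against 111.9 ± 15.0 CPM over HET libraries (SD, n = 3 per group), while Atp5g2 had between 2 and 20 counts per library and made up 1.28% ± 1.24 of the reads per length of the pair in WT and 1.56% ± 0.483 in HET (SD, n = 3 per group). Atp5s and Atp5sl carry the family's symbol but are not structural subunits of the enzyme, and neither passed.

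**Figure D2:**
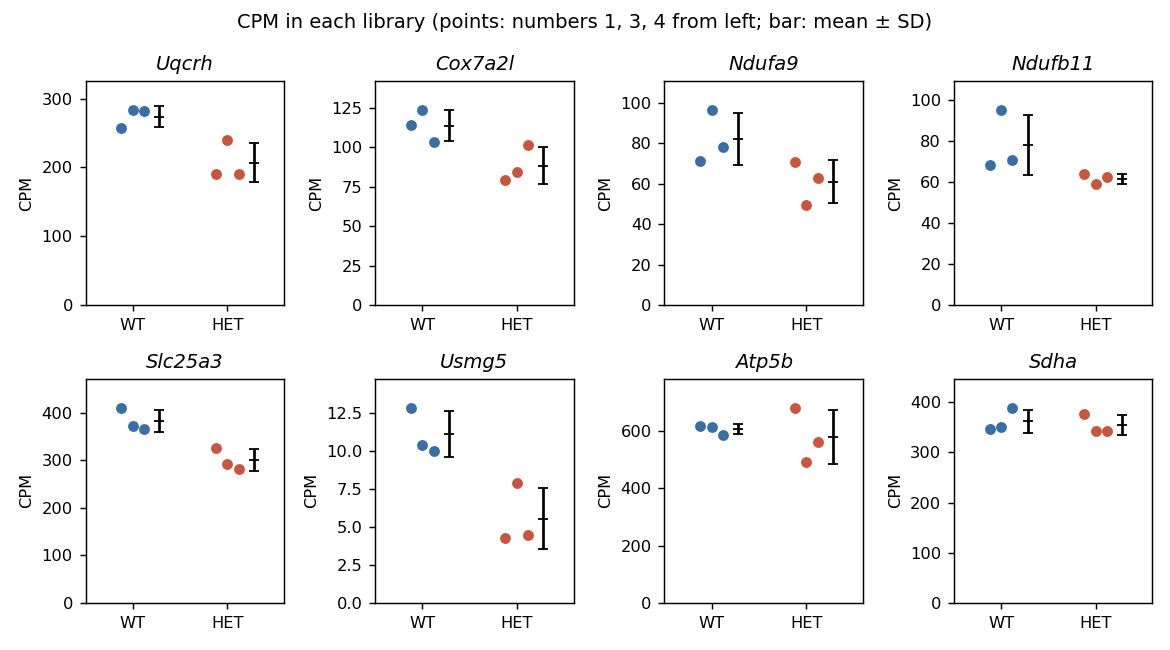
CPM (y axis, from 0) of 8 genes in each of the 3 WT (blue) and 3 HET (red) libraries, with the mean ± SD beside the points. Uqcrh, Cox7a2l, Ndufa9, Ndufb11, Slc25a3 and Usmg5 do not overlap between the groups, while Atp5b and Sdha do, and 0 of the 8 passed the test over all genes.

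The second question was how the members varied among libraries. In each of the 5 complexes the mean level of the members was lowest in HET 3, though in complex III WT 4 was nearly as low (-0.18 against -0.19). The mean log2 level of the 66 members, relative to the WT mean of each gene, was -0.07, 0.09 and -0.02 for WT 1, 3 and 4, against 0.10, -0.31 and -0.08 for HET 1, 3 and 4. The same mean over all genes lay between -0.02 and 0.01 in each library. HET 3 was the lowest of the 6 libraries for 34 members (51.5%, against 18.4% of all genes), and it lay below all WT libraries for 41 (62.1% against 26.8%). HET 1 was the highest library for 22 members (33.3% against 17.7%), and WT 3 for 37.9% (against 15.5%). By complex the HET 3 level was -0.31, -0.26, -0.19, -0.49 and -0.24 for I to V, and the HET 1 level 0.06, 0.23, 0.18, 0.09 and 0.11. The members together took 0.601%, 0.635% and 0.601% of all counts for WT 1, 3 and 4, against 0.667%, 0.522% and 0.595% for HET 1, 3 and 4. In mean log2 level HET 3 thus lay below the WT libraries, while HET 1 was close to WT 3 and HET 4 close to WT 1. Myc was lowest in HET 1, and its relation to the level of the members was not tested.

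The size and the sign of the members' median changed when single libraries were left out. Without HET 1, 57 of 66 members were negative, the median was -0.19, and 20 members (30.3%) had both remaining HET libraries below all WT libraries, against 12.3% of all genes. Without HET 3, 32 of 67 were negative and the median was 0.02. Without WT 1, 15 members (22.7%) had the HET libraries all below WT, against 11.9% of all genes, and without WT 4 it was 7 (10.4%, against 9.21%). Members called remained 0 in each of these fits.

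**Figure D3:**
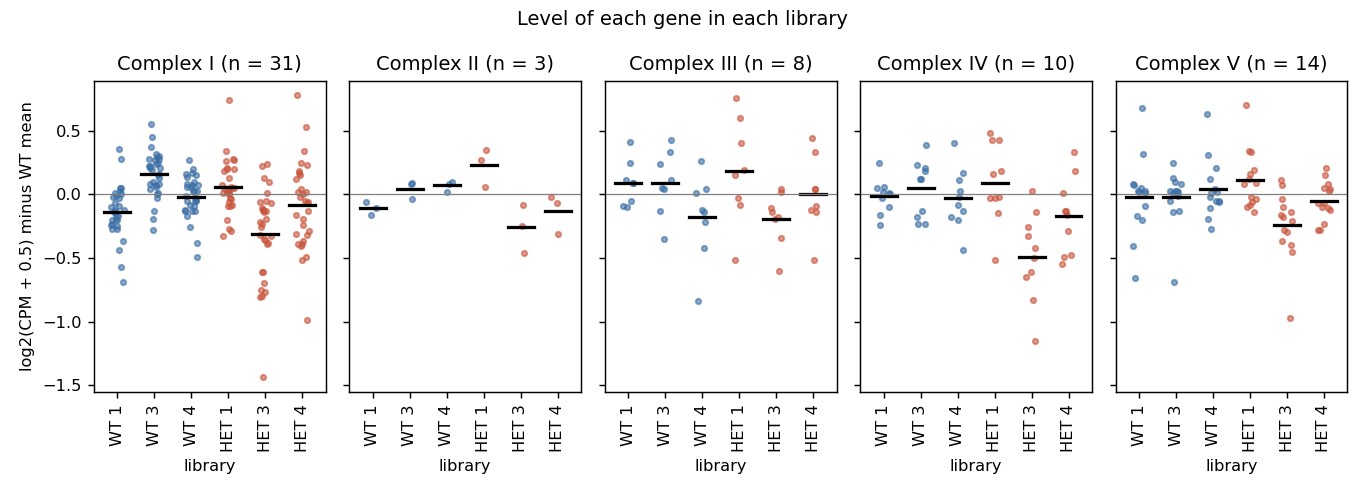
Level of each tested member (points) in each library (x axis), as log2(CPM + 0.5) minus the gene's WT mean (y axis), in 1 panel per complex, with WT in blue, HET in red and a black bar for the mean. The bars of HET 3 lie below 0 in all 5 panels, between -0.49 and -0.19, and those of HET 1 above 0, between 0.06 and 0.23.

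Cell cycle genes varied among the same libraries. The list of 20 replication and mitosis genes had mean levels of -0.02, 0.23 and -0.21 for WT 1, 3 and 4, against 0.52, -0.47 and 0.04 for HET 1, 3 and 4. HET 1 was the highest library for 17 of the 20 and HET 3 the lowest for 14. The 10 neutrophil markers in the table had 0.27, 1.27 and -1.54 for WT against 0.87, -1.13 and -0.29 for HET, and the 12 stem cell markers -0.05, -0.12 and 0.16 against -0.21, 0.11 and 0.19. HET 1 and WT 3 were thus highest, and HET 3 was low, in the respiratory, cell cycle and neutrophil lists, while WT 4 was lowest in the neutrophil list and close to the WT mean in the respiratory one. The part of these lists in the respiratory values was not tested. Of the cell cycle genes, and of the stem cell and neutrophil markers, 0 passed between HET and WT.

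**Figure D4:**
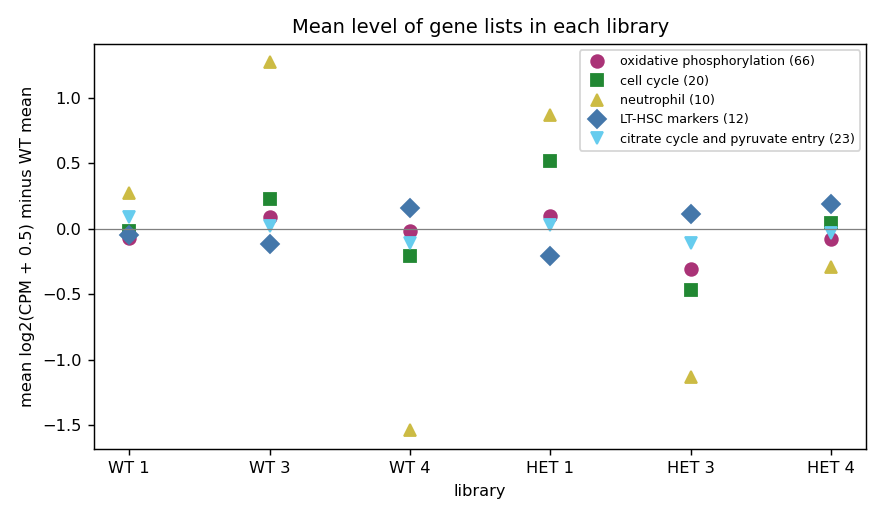
Mean level of 5 gene lists (symbols, with the number of genes tested) in each library (x axis), as log2(CPM + 0.5) minus the WT mean (y axis). The respiratory genes go from 0.10 in HET 1 to -0.31 in HET 3, and the cell cycle genes from 0.52 to -0.47.

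Exonic length, the bases covered by all annotated exons of a gene, is a property that the rule did not use. The members' median exonic length was 1778.5 bases (range 419 to 8086), against 4585 bases over all genes tested. Genes in the shortest eighth of the table (66 to 2059 bases) showed a median of -0.07 on the log2 scale and those in the longest eighth 0.04. The 40 members in the shortest eighth had a median of -0.11. With the trend of each library with length and GC content removed, the members' median was -0.03, that of complex I 0.02 and that of complex IV -0.07. The shortest eighth of all genes had mean levels of -0.07, 0.08 and -0.01 for WT 1, 3 and 4. In HET 1, 3 and 4 it had -0.04, -0.10 and -0.08. The members, of all lengths, had -0.07, 0.09 and -0.02 for WT, against 0.10, -0.31 and -0.08 for HET. The part of length in these levels was not tested.

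**Figure D5:**
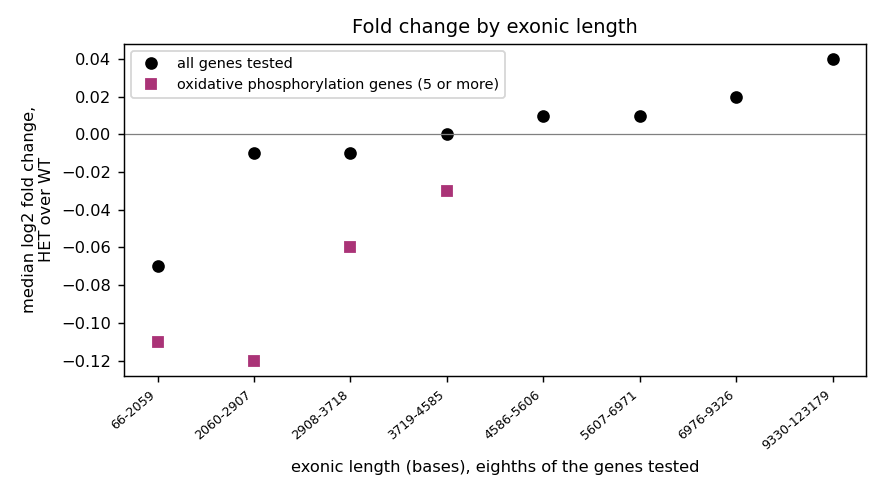
Median log2 fold change of HET over WT (y axis) for all genes tested (black) in eighths of exonic length (x axis, shortest at left), and for the members in the eighths that hold at least 5 of them (purple). The black points go from -0.07 to 0.04, and the purple point of the shortest eighth, at -0.11, stands on 40 members while the others stand on 10 or fewer.

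The third question was how genes around the respiratory complexes behaved. Of 6 tested subunits and carriers outside the symbol rule, 0 passed. Usmg5 and 2010107E04Rik encode small subunits of the ATP synthase. Usmg5 gave 12.8, 10.4 and 10 CPM in the WT samples, and the HET samples gave 4.27, 7.85 and 4.48 CPM (edgeR adjusted p = 0.844), and 2010107E04Rik 49.4, 41.9 and 46.7 CPM for WT against 40.2, 22.0 and 33.7 CPM for HET (adjusted p = 0.877). Cycs, which encodes the mobile carrier cytochrome c, stood at 11, 10.4 and 13.8 CPM for WT against 18.2, 17.4 and 14.2 CPM for HET (adjusted p = 0.994). In all 3 genes the groups did not overlap, with HET below WT for Usmg5 and 2010107E04Rik and above WT for Cycs. That is 33.3% below and 16.7% above in a list of only 6 tested genes, against 5.64% and 4.69% of all genes. Atpif1, the inhibitor of the ATP synthase, had a log2 fold change of -0.04 ± 0.13 (SE).

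Assembly factors did not pass either. Of 11 tested for complex I, 8 had positive and 3 negative fold changes (median 0.24), with Ndufaf2 at 0.46 ± 0.24, Tmem70, which also serves complex V, at 0.33 ± 0.24 and Foxred1 at 0.24 ± 0.18 (SE). The 6 for complexes II and III had a median of -0.07, the 21 for complex IV -0.01 and the 4 for complex V 0.16. Uqcc3, a complex III factor, stood at -0.50 ± 0.25 and Cmc1, a complex IV factor, at -0.44 ± 0.23 (SE).

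Of the carriers that feed the ATP synthase, Slc25a3, the mitochondrial phosphate carrier, had the smallest p. It came to 409.9, 372.8 and 365.6 CPM across the WT libraries, against 325.7, 292.9 and 282.6 CPM across the HET libraries, without overlap, and HET stood at 78.5% of WT (95% interval 67.0% to 92.0%, edgeR adjusted p = 0.458). Ucp2, an uncoupling-family carrier, gave 299.8, 342.8 and 313.1 CPM in the WT samples, and the HET samples gave 352.1, 370.7 and 365.8 CPM (adjusted p = 0.980). Its HET libraries all lay above the WT libraries. Of the 6 tested genes in this list 1 (16.7%) was all below and 1 (16.7%) all above. Over all genes these shares were 5.64% and 4.69%. Among 13 genes of coenzyme Q synthesis and handling the median was 0.00, and Coq10b, a coenzyme Q-binding protein, came to 66, 41.9 and 48.2 CPM across the WT libraries, against 33.0, 26.2 and 27.1 CPM across the HET libraries (edgeR adjusted p = 0.172). The 23 citrate cycle and pyruvate entry genes had a median of -0.02 with 13 negative and 10 positive values. Their mean levels were 0.09, 0.02 and -0.11 for WT, against 0.03, -0.11 and -0.03 for HET. WT 4 was thus as low as HET 3.

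Regulators of respiratory gene transcription (17 tested) had a median of -0.02. Ppargc1a, the coactivator PGC-1alpha, was scarce, at 4.33, 5.49 and 4.77 CPM for WT against 0.397, 3.71 and 3.12 CPM for HET, a difference of -1.08 in log2 units (SE 0.74, edgeR adjusted p = 0.995). Yy1 stood at -0.20 ± 0.12 and Crtc2 at 0.17 ± 0.17. The 18 genes of mitochondrial DNA upkeep and transcription had a median of 0.15, with 12 positive and 6 negative values. Polg2, the accessory subunit of the mitochondrial DNA polymerase, gave 22.2, 24.9 and 36.7 CPM in the WT samples, and the HET samples gave 35.6, 63.2 and 48.1 CPM (edgeR adjusted p = 0.406). The 26 protein import genes had a median of -0.01, with Tomm5 at -0.94 ± 0.35 (SE, adjusted p = 0.722). The 9 antioxidant genes had a median of 0.01. Nnt, the proton-driven transhydrogenase gene, had few reads in every library, at 2.71, 4.76 and 1.67 CPM for WT against 3.57, 8.72 and 6.82 CPM for HET.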

How the data were processed

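Counts of reads per gene were deposited by the authors for 6 libraries in 1 table. The submitters' processing notes list STAR 2.5.2b, FastQC, limma, edgeR and mm10. They name no read counter, annotation or strand setting, so reads of overlapping genes, and of subunit genes with processed pseudogenes, may be split or merged. The table already lacked genes with the lowest counts: the second highest library of every gene had at least 1.012 CPM.

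Libraries were grouped by genotype. After filterByExpr removed 910 genes, 10869 were tested with edgeR 4.0.16 (TMM scaling, robust quasi-likelihood F test, Benjamini-Hochberg adjusted p, threshold 0.05, R 4.3.3). The biological coefficient of variation was 20.7%. Standard errors were taken from the fold change and its F statistic. Levels on the log scale are log2(CPM + 0.5). Lengths are from GENCODE M21, with 11775 genes matched, and the level per kilobase uses the median coding transcript length. A level of 3 counts corresponds to 0.298 to 0.715 CPM. Replicates differed beyond sampling noise: the median chi-square per gene between libraries of a group was 2.96 to 5.61, where sampling alone gives 0.455. Alternatives were other scalings and filters, DESeq2 1.42.0, limma-voom 3.58.1, a library-number block, length and GC trends, and each library left out.

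The symbol rule uses no measured value, but the members and lists were chosen with earlier results of these data known. Genes named are the 4 of smallest p and the highest per length in each complex, complex I core genes, isoform sets, subunits outside the rule and up to 3 genes of smallest p in each other list. The other members were named for their role or extreme value after their values were seen. The values of 1 complex I member are not reported here, though it was kept in all fits and counts.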

Additional observations from a re-analysis of the deposited data

How the results depend on the processing

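Members called stayed at 0 in both directions in every alternative, and the smallest adjusted p of any member was 0.12, that of Uqcrh without HET 3. The members' median log2 fold change lay between -0.09 and -0.03 under the other scalings, filters, tests, block and trend corrections, and between -0.19 and 0.02 when 1 library was left out. With 1 library left out the medians lay between -0.19 and -0.01 for complex I, -0.13 and 0.02 for II, -0.07 and 0.06 for III, -0.31 and -0.03 for IV, and -0.12 and 0.03 for V. With fewer libraries compared, the number of members with the HET libraries all below WT went from 4 to between 5 and 20 (7.46% to 30.3%, against 9.07% to 12.3% of all genes), and all above from 0 to between 0 and 5 (at most 7.46%, against 8.56% to 11.8%). The share below was over that of all genes without HET 1, WT 1 and, slightly, WT 4, and under it in the other 3 fits. Genes called over the whole table numbered 28 in the main design, 59 with DESeq2, 49 with the replicate block, 73 with the block and the length and GC trend removed, and between 10 and 68 with 1 library left out. The block used the library numbers. Same-numbered WT and HET libraries had deviations correlated at 0.114, -0.049 and 0.069 over genes, so the numbers were not taken to pair the libraries, and under the replicate block 0 members were called with a median of -0.09. For the 95 named genes, 1412 of 1417 alternatives kept their side of the threshold, and 0 turned the direction of a gene with an unadjusted p under 0.05. The other 5 passed only under the alternative: Itga2b, a megakaryocyte marker with a higher HET mean, with DESeq2, with the block, with block and trend, and without HET 3 (adjusted p = 0.0256, 0.0303, 0.00352 and 0.0337), and Coq10b with the block and the trend removal together (adjusted p = 0.0389). Depth limited Atp5g2 and Ndufs5, with at most 20 and 40 counts in a library.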
